A study of Homo sapiens with 9 samples.

Results

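A mimic of miR-140-3p was set directly against a mimic of miR-126-5p in HCN-2 cells, a contrast of the 2 microRNAs that leaves the scrambled control out of the test. It uses 6 of the 9 arrays of the series, 3 of miR-140-3p and 3 of miR-126-5p, chosen by their titles, and the rows of the deposited table that the platform annotation gives exactly 1 gene symbol. These were 36176 of 138745 rows and covered 33616 genes. HCN-2 is a cell line that the labels describe as human cortical neuronal, grown in serum, and every set came from this line. A mimic is a synthetic duplex that supplies 1 mature microRNA. Each transfection used 3 μL of 20 μM mimic or of a scrambled RNA, and total RNA was collected 24 h later. The 3 sets were therefore miR-140-3p mimic, miR-126-5p mimic and scrambled control, each with 3 arrays, and differed, as far as the labels say, only in the RNA transfected. The values of the control arrays are given as a description, since they entered no test. No source used here tells whether the replicate arrays stand for separate cultures. The p-values therefore measure the spread between these arrays, which may be technical, and the small number of arrays limits the precision. The study used the arrays to ask what each microRNA does to gene expression in these cells, and this contrast asks where the 2 differ.

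MicroRNAs guide Argonaute proteins to messenger RNAs, mostly through pairing of the seed, the bases near the 5′ end, with sites in the 3′ untranslated region, and the paired messenger RNAs are translated less and degraded. miR-140-3p and its partner strand are processed from a hairpin in an intron of WWP2 and are best known from cartilage. miR-126-5p comes from a hairpin in an intron of EGFL7 and is abundant in endothelial cells. The mature sequences are shown because the mimics supply exactly these strands. They are the RefSeq sequences on GRCh38.p14, at chr16:69933142-69933162 and chr9:136670616-136670636, both on the plus strand, with the seed (bases 2 to 8) in capitals.
hsa-miR-140-3p: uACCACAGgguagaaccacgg
hsa-miR-126-5p: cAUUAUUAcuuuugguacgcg
The seeds were unlike each other, and 0 other mature human microRNAs in the RefSeq table carried either seed. A site for the miR-140-3p seed reads CUGUGGU in a transcript and a site for the miR-126-5p seed reads UAAUAAU. Transcript sites were not searched.

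Between the mimics, differences leaned toward higher values with miR-140-3p among well expressed protein-coding genes, and none passed the adjusted test. After Benjamini-Hochberg adjustment limma called 0 of 36176 rows (0.00%) in the 6-array fit, the smallest adjusted value being 0.357. Before adjustment 3647 rows (10.1%) had a limma p under 0.05. With the cutoffs of the study, which were that p together with a log2 difference beyond 0.32 in either direction, 2118 rows (5.85%) were higher with miR-140-3p and 1528 rows (4.22%) were lower. With 1 row standing for each gene, 1994 genes (5.93%) had higher values after miR-140-3p and 1433 (4.26%) lower values. These are the thresholds meant below by "past the thresholds", and every difference is the mean log2 value with miR-140-3p minus that with miR-126-5p.

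The share of protein-coding genes past the thresholds as higher grew with the level of the gene. Of 17358 protein-coding genes, 8.80% were higher and 1.76% lower. The share higher ran through 2.97% of genes with a mean log2 value below 4, 8.68% between 6 and 8, 13.0% between 10 and 12 and 15.2% from 14 upward. The median difference was 0.052 below 4 but nearly flat from 6 upward, at 0.094 between 6 and 8, 0.093 between 10 and 12 and 0.102 from 14 upward. Of the 10182 protein-coding genes with a mean log2 value of at least 6, 12.0% (1223 genes) were higher and 1.30% (132 genes) were lower, with a median difference of 0.095. This excess rested in part on single arrays. Without miR-140-3p replicate 1 the share higher among these 10182 genes was 6.76% and the share lower 2.17%, and without miR-126-5p replicate 1 the share higher was 6.65% and the share lower 0.825%. Over all 17358 protein-coding genes the share higher was 5.18% without the first of these arrays and 5.12% without the second. The genes that were higher were shorter, with a median length of 20.3 kb against 32.3 kb over the 10182 genes. The promoters available for 83.1% of them had a median GC content of 66.3%, against 65% for all. miR-140-3p replicate 1 stood somewhat apart from the rest. Its correlations with the other 5 mimic arrays ran between 0.987 and 0.991 over the rows tested, against 0.991 to 0.994 among the other 5. The medians of the arrays over these rows lay between 5.63 and 5.72, and the background control rows had means of 3.67 to 3.89.

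Among 43 hand-written gene lists, those with the largest share of members past the thresholds were immediate early genes, metallothioneins, glycolytic enzymes and collagens, all higher with miR-140-3p. Of 25 measured immediate early genes 16 were higher, of 8 metallothioneins 5, of 17 glycolytic enzymes 7 and of 17 collagens 6, and 0 members of these lists were lower. The background for such counts is the 8.80% of all protein-coding genes that were higher, or the 12.0% at a mean of at least 6, where nearly all members of these lists lay. Each list's count is a description, since the members share arrays and regulation and none passed the adjusted test.

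**Figure D1:**
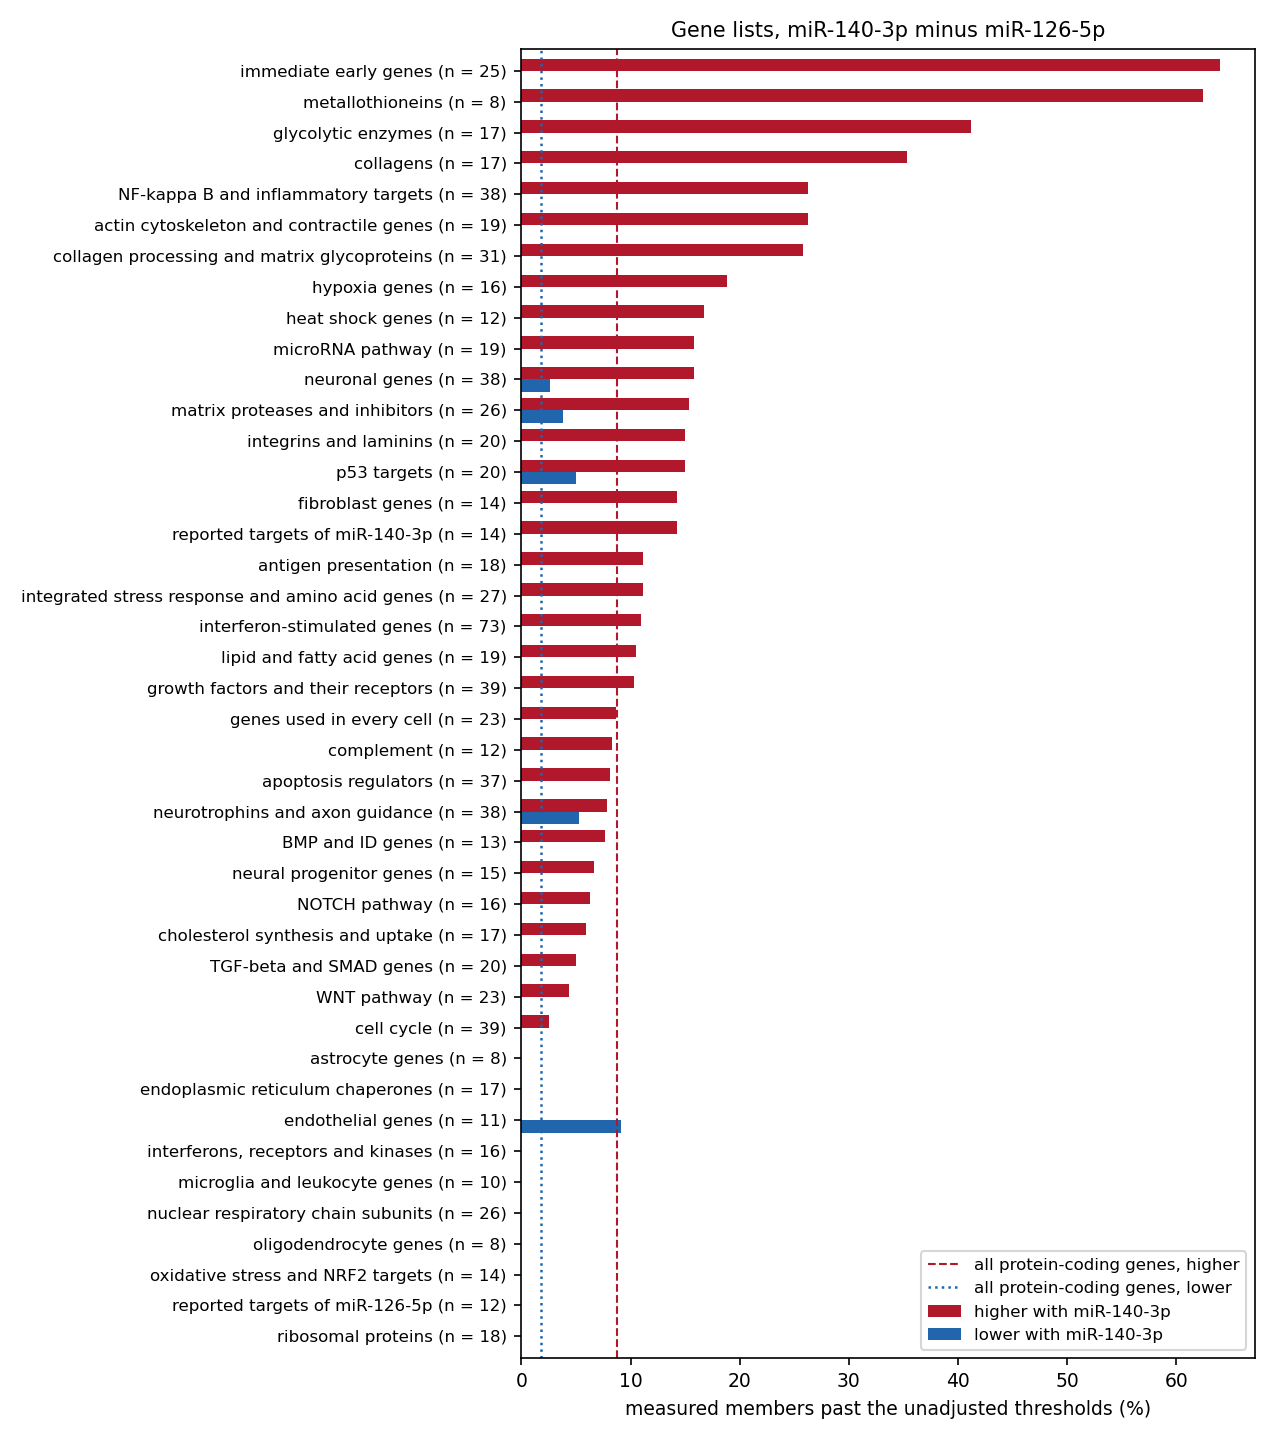
Share of the measured members of each list with at least 8 measured members (%, horizontal axis) that was higher (red) or lower (blue) in the miR-140-3p set relative to the miR-126-5p set at an unadjusted p under 0.05 and a log2 difference beyond 0.32. The dashed and dotted lines mark the shares over all protein-coding genes, 8.80% and 1.76%, and the immediate early genes (64.0%) and metallothioneins (62.5%) stand at the top.

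Immediate early genes are transcribed within minutes of a growth factor, stress or calcium signal without new protein synthesis, and most encode transcription factors or feedback inhibitors. Their median difference was 0.57, against 0.076 over all protein-coding genes, and 17 of the 25 did not overlap between the sets in the higher direction, as did 13.5% of protein-coding genes. Averaged over the list, the log2 value was 12.88, 12.32 and 12.49 on the miR-140-3p arrays and 11.99, 12.02 and 12.05 on the miR-126-5p arrays. All 3 miR-140-3p arrays lay above all 3 miR-126-5p arrays. The control arrays, at 12.11, 12.53 and 12.72, lay above all 3 miR-126-5p arrays and below miR-140-3p replicate 1.

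FOSL2, an AP-1 subunit of the FOS family, showed the largest difference in the list. Its log2 values were 11.45, 10.19 and 10.42 after miR-140-3p, against 9.39, 9.43 and 9.38 after miR-126-5p, a difference of 1.29 ± 0.29 (standard error, limma adjusted p = 0.357). FOSL1, another AP-1 subunit, stood at 9.14, 8.12 and 8.57 after miR-140-3p, against 7.64, 7.91 and 7.62 after miR-126-5p. FOS itself stood at 14.56, 13.85 and 14.02 after miR-140-3p, against 13.37, 13.49 and 13.44 after miR-126-5p, 0.71 higher. For all 3 subunits the sets did not overlap, and miR-140-3p replicate 1 was the highest of the 6 arrays. JUNB was 0.70 higher, whereas JUN (0.29) and JUND (0.39) did not pass the thresholds.

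The NR4A orphan nuclear receptors, which act without a known ligand in many stress and neuronal activity responses, were next. NR4A1 stood at 15.62, 14.88 and 15.02 after miR-140-3p, against 14.12, 14.33 and 14.14 after miR-126-5p, a difference of 0.98 ± 0.21 (standard error, limma adjusted p = 0.357). NR4A2 stood at 13.93, 13.37 and 13.30 after miR-140-3p, against 12.67, 12.75 and 12.73 after miR-126-5p, 0.82 higher. NR4A3 was 0.42 higher with sets that overlapped, and passed the thresholds without only 2 of the 6 arrays. Among zinc finger factors, EGR1 stood at 18.52, 17.93 and 17.99 after miR-140-3p, against 17.44, 17.42 and 17.60 after miR-126-5p, 0.66 higher, EGR3 was 0.87 higher and KLF4 0.54 higher. MYC, which drives growth and biosynthesis, stood at 10.64, 9.98 and 10.05 after miR-140-3p, against 9.37, 9.40 and 9.58 after miR-126-5p, 0.78 higher.

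The inhibitors of the list split. ZFP36, which binds AU-rich elements and destabilizes inflammatory and early messenger RNAs, stood at 17.62, 17.27 and 17.17 after miR-140-3p, against 16.38, 16.62 and 16.65 after miR-126-5p, a difference of 0.80 ± 0.18 (standard error, limma adjusted p = 0.357). DUSP1, a nuclear phosphatase of MAP kinases, was 0.62 higher, and IER2 and IER3 were 0.80 and 0.57 higher. DUSP6, the cytoplasmic ERK phosphatase, was at 10.95, 10.99 and 11.28 after miR-140-3p, against 11.46, 11.27 and 11.51 after miR-126-5p, a difference of -0.34 that did not pass. SPRY2 (-0.20) did not pass either, and SPRY4 (0.53), another Sprouty inhibitor of receptor tyrosine kinase signaling, passed with sets that overlapped. With each of the 6 arrays left out in turn, 13 to 18 members were higher and the median stayed between 0.47 and 0.71.

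**Figure D2:**
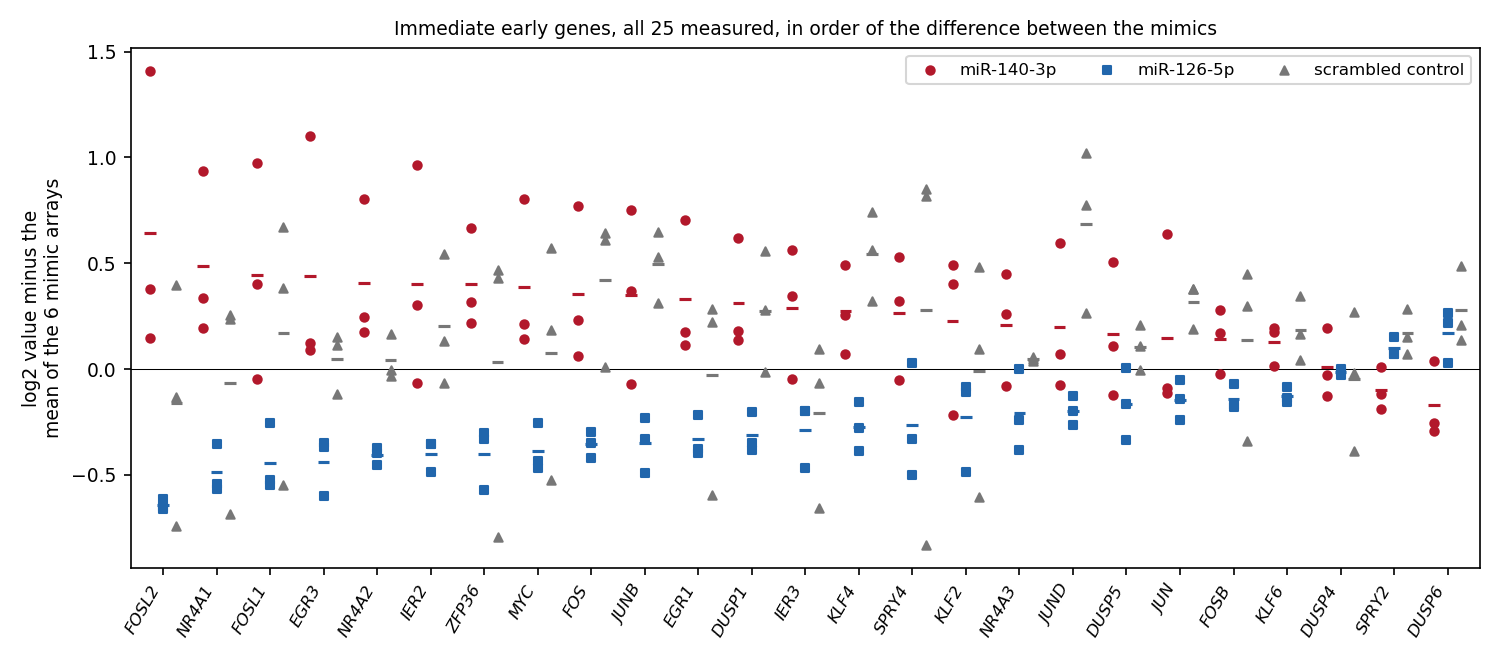
Log2 value of each of the 25 measured immediate early genes on each array, minus the gene's mean over the 6 mimic arrays (vertical axis), for miR-140-3p (red circles), miR-126-5p (blue squares) and the scrambled control (grey triangles), with short lines at the set means. From FOSL2 (1.29) on the left to DUSP6 (-0.34) on the right the difference falls, the miR-126-5p arrays lie close together, and miR-140-3p replicate 1 is often the highest point.

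Promoters of 18 of the 25 members were in the RefSeq table, as 250 bases before to 50 bases after the start. The serum response element core (CArG box), bound by SRF at many of these genes, was found on either strand in 1 of the 18, against 1.29% of all 27305 promoters. The AP-1 site TGACTCA was in 1 of 18 (4.92% of all) and the full cyclic AMP response element in 2 of 18 (1.98% of all). The EGR1 promoter is shown, at chr5:138465229-138465528 on the plus strand of GRCh38.p14, since it held 2 CArG boxes, in capitals.
EGR1 promoter: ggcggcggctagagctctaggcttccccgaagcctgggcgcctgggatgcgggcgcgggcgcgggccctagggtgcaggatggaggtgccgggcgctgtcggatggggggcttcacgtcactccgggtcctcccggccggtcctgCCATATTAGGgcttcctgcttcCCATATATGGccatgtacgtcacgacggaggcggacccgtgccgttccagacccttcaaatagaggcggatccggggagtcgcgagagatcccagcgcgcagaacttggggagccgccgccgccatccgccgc
The match describes these letters only, and elements outside the window were not searched.

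Metallothioneins are small cysteine-rich proteins that bind zinc and copper, and their genes respond to metals, glucocorticoids and oxidative stress. Of 8 measured isoforms 5 were higher with miR-140-3p, with a median difference of 0.68 over the list. MT2A, the main human isoform, stood at 18.21, 17.94 and 17.94 after miR-140-3p, against 17.01, 17.27 and 17.40 after miR-126-5p, a difference of 0.80 ± 0.17 (standard error, limma adjusted p = 0.357). MT1X stood at 15.71, 15.33 and 15.53 after miR-140-3p, against 14.45, 14.64 and 15.15 after miR-126-5p, 0.78 higher. MT1M was 0.74, MT1F 0.72 and MT1G 0.65 higher, and in all 5 the sets did not overlap. MT1E (0.44) and MT1H (0.41) did not pass, and MT3, the brain isoform, differed by -0.25. The isoforms are close in sequence, and how well the probes tell them apart is not given in the sources used here.

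The control arrays had list means of 12.15, 12.61 and 12.84 for the metallothioneins. The miR-140-3p arrays had 12.36, 11.96 and 12.04 and the miR-126-5p arrays 11.48, 11.47 and 11.81. With each mimic array left out, 5 or 6 members passed. Promoters were available for 3 of the 8 members, and the metal response element (TGCACNC or TGCGCNC on either strand) was in 3 of 3, against 29.3% of all promoters. That of MT2A is shown, at chr16:56608334-56608633 on the plus strand of GRCh38.p14, because it held 8 of them, in capitals.
MT2A promoter: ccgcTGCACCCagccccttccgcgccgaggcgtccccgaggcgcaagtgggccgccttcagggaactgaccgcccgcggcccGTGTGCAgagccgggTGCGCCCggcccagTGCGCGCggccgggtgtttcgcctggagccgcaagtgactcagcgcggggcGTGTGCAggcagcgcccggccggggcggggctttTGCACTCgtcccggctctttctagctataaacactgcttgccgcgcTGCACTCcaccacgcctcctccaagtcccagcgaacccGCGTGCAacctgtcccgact
As with EGR1, nothing beyond the letters was measured.

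NF-kappa B is released from its inhibitors by cytokines, double-stranded RNA and stress, and turns on cytokines, chemokines and adhesion molecules. Of 38 measured targets 10 were higher with miR-140-3p (26.3%, beside 8.80% of all protein-coding genes) and 0 were lower. The median difference was 0.24. The cytokine LIF, which signals through gp130, stood at 12.10, 11.00 and 11.69 after miR-140-3p, against 10.85, 10.67 and 10.66 after miR-126-5p, 0.87 higher. IL6, a cytokine of the same receptor family, stood at 12.70, 12.70 and 12.88 after miR-140-3p, against 12.31, 11.88 and 12.43 after miR-126-5p, 0.56 higher. In both the sets did not overlap. ICAM1, an adhesion molecule for leukocytes, was 0.79 higher, although its lowest miR-140-3p value and highest miR-126-5p value were both 11.15.

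The chemokines CXCL2 (0.50), CXCL3 (0.43) and CCL5 (0.59) were higher, CXCL3 and CCL5 with sets that were not apart. NFKB2, the p100 subunit that is itself a target, was 0.49 higher, TNFAIP2 0.67, IL1A 0.50 and NFKBIZ 0.48, of which NFKBIZ kept its call without only 1 of the 6 arrays. The count was 4 without miR-126-5p replicate 1 and also without miR-126-5p replicate 2, and it lay between 7 and 12 when one of the other 4 arrays was left out. The kappa B motif was in 15 of the 31 available promoters of the list, against 5.72% of all promoters. CXCL2 is given as an example, at chr4:74099146-74099445 on the minus strand of GRCh38.p14, with 2 overlapping matches on opposite strands in capitals.
CXCL2 promoter: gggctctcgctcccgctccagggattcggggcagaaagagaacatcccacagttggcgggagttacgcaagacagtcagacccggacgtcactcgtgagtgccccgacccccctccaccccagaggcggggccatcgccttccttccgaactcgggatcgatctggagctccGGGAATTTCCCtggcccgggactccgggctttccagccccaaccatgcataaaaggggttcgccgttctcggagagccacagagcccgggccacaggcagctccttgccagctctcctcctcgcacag

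Glycolysis turns glucose into pyruvate, and 7 of its 17 measured enzymes were higher with miR-140-3p. GPI, which interconverts glucose and fructose phosphates, stood at 12.92, 12.46 and 12.62 after miR-140-3p, against 12.06, 12.07 and 11.91 after miR-126-5p, a difference of 0.65 ± 0.17 (standard error, limma adjusted p = 0.357). All 3 phosphofructokinase genes passed, PFKP by 0.59, PFKL by 0.51 and PFKM by 0.43, as did the aldolases ALDOC (0.39) and ALDOA (0.35) and the hexokinase HK2 (0.37). In all 7 the sets did not overlap. Of those that did not pass, TPI1 was at 0.30 and GAPDH at 0.22, both with sets apart, and PKM at 0.22 with sets that overlapped. ENO2 was at 0.15, LDHA at 0.08, ENO1 at 0.01, PGK1 at -0.02, PGAM1 at -0.05 and LDHB at -0.07. HK1, the other hexokinase measured, was at -0.19. The count was 4 without miR-140-3p replicate 1, 3 without miR-126-5p replicate 1, 4 without miR-126-5p replicate 2 and 4 without miR-126-5p replicate 3.

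Of 16 measured hypoxia genes 3 were higher (18.8%), beside 8.80% of all protein-coding genes. They were SLC2A3, a neuronal glucose transporter (0.67), PFKFB3, which makes the activator of phosphofructokinase (0.45), and the collagen cross-linking enzyme LOX (0.39). SLC2A3 stood at 14.80, 14.37 and 14.41 after miR-140-3p, against 13.79, 14.03 and 13.76 after miR-126-5p. It passed again without each array in turn, whereas PFKFB3 did so without only 2 of the 6. The hypoxia count was 1 without miR-140-3p replicate 1 and 1 without miR-126-5p replicate 2. Of 26 nuclear subunits of the respiratory chain 0 were called in either direction, with a median difference of 0.06.

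**Figure D3:**
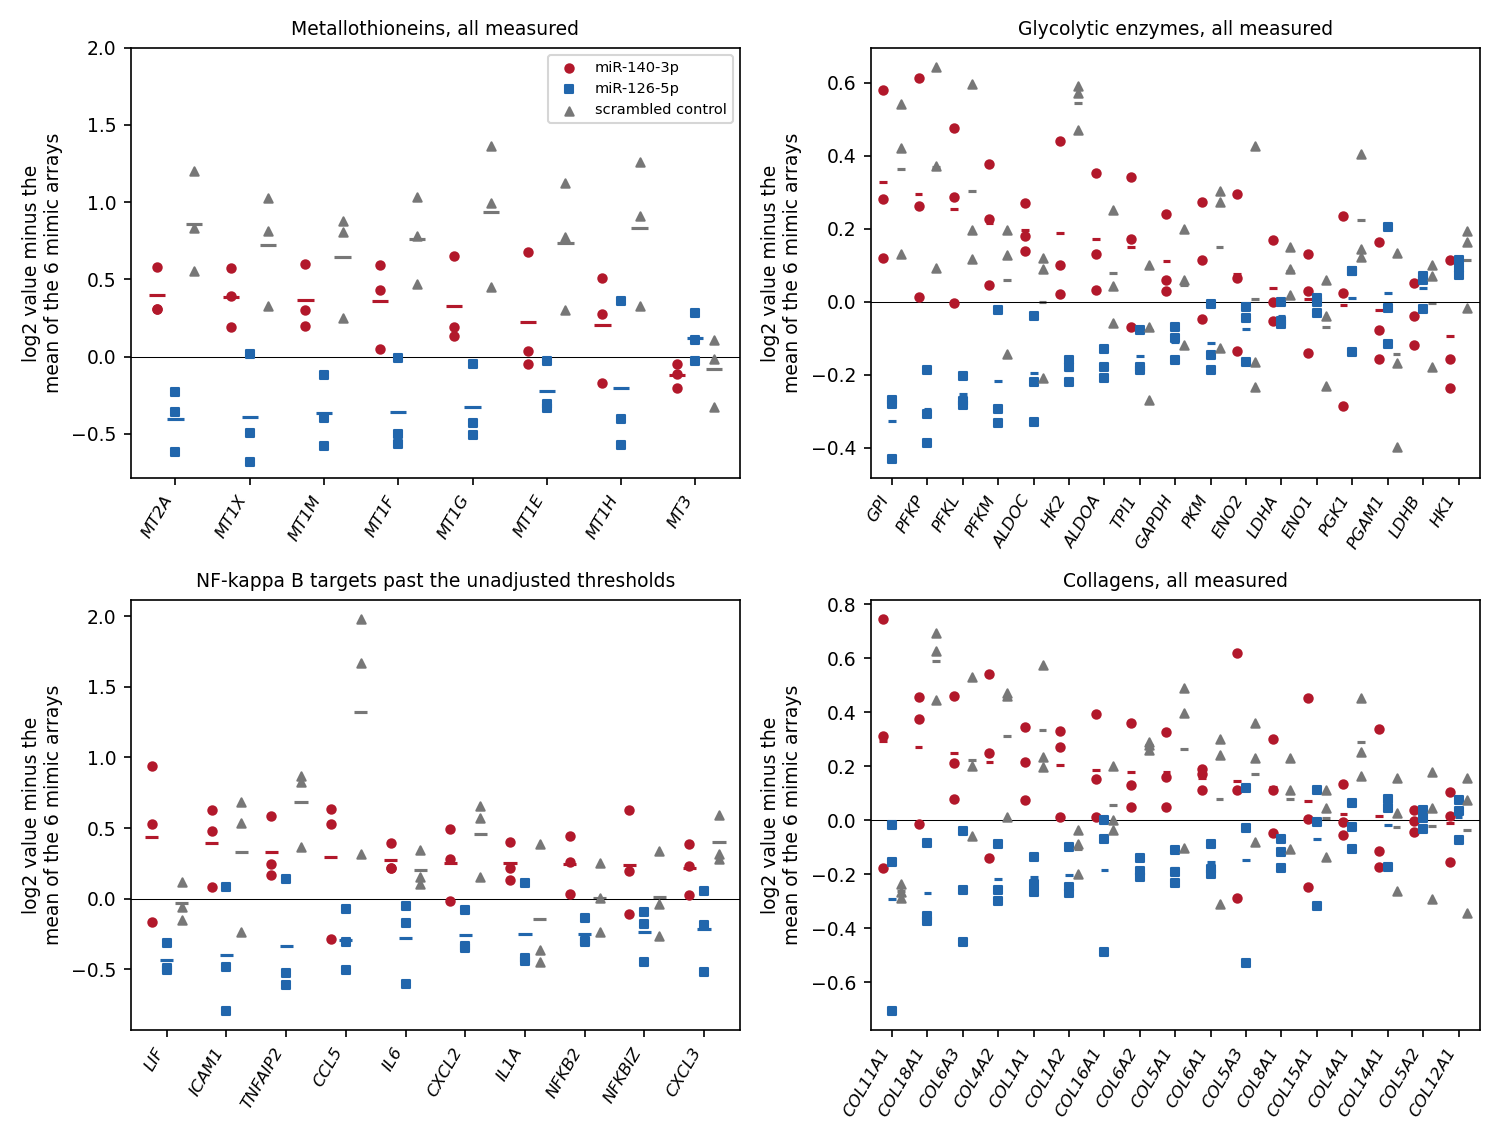
Log2 values of single arrays minus the gene's mean over the 6 mimic arrays (vertical axes) for all measured metallothioneins, glycolytic enzymes and collagens and for the 10 NF-kappa B targets past the thresholds, with miR-140-3p as red circles, miR-126-5p as blue squares and the scrambled control as grey triangles, and short lines at the set means. MT2A (0.80), GPI (0.65), LIF (0.87) and COL18A1 (0.54) are examples of sets that do not overlap, the last by a narrow gap (12.25 against 12.18) and LIF by 11.00 against 10.85, and the mean of the control arrays lies above both mimic means for every metallothionein but MT3.

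Collagens form the fibers and sheets of the extracellular matrix, and 6 of 17 were higher with a median difference of 0.35. COL18A1, a basement membrane collagen, stood at 12.72, 12.25 and 12.64 after miR-140-3p, against 11.89, 12.18 and 11.91 after miR-126-5p, 0.54 higher. COL1A1, a chain of type I collagen, stood at 15.40, 15.13 and 15.27 after miR-140-3p, against 14.92, 14.82 and 14.79 after miR-126-5p, 0.42 higher, and its partner chain COL1A2 was 0.41 higher. COL6A3 (0.50), COL6A2 (0.36) and COL5A1 (0.35) were the others, and the sets were apart in all 6. The count depended on single arrays, at 2 without miR-140-3p replicate 1, 3 without miR-126-5p replicate 1 and 1 without miR-126-5p replicate 3.

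Of 31 measured genes for collagen processing and matrix glycoproteins 8 were higher (25.8%, beside 8.80% of all protein-coding genes) and 0 lower. Their median difference was 0.09, beside 0.095 over all protein-coding genes with a mean of at least 6. BMP1, the protease that removes the C-terminal propeptides of fibrillar collagens, stood at 10.03, 9.35 and 9.87 after miR-140-3p, against 8.81, 8.65 and 9.03 after miR-126-5p, a difference of 0.92 ± 0.21 (standard error, limma adjusted p = 0.357). PCOLCE, which enhances that cleavage, was 0.68 higher, the lysyl oxidase LOXL3 0.60 and SERPINH1, the collagen chaperone, 0.54. FBLN5 (0.71), THBS2 (0.53) and MFAP4 (0.47) were higher as well. FN1 (0.02), FBN1 (-0.04), LUM (-0.11), VCAN (0.04) and P4HA1 (-0.03) were among the 23 that did not pass. The count was 4 without miR-140-3p replicate 1, 4 without miR-126-5p replicate 1 and 5 without miR-126-5p replicate 2.

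Among 26 proteases and inhibitors, ADAM12 stood at 12.93, 12.55 and 12.36 after miR-140-3p, against 11.69, 11.70 and 11.74 after miR-126-5p, a difference of 0.90 ± 0.18 (standard error, limma adjusted p = 0.357). The aggrecanase ADAMTS1 was 0.72 higher, the inhibitor TIMP4 0.55 and ADAM19 0.39. With ADAM12 they made 4 higher members (15.4%), beside 8.80% of all protein-coding genes. ADAM17, the sheddase that releases TNF and EGF receptor ligands, went the other way, at 11.34, 11.12 and 11.13 after miR-140-3p, against 11.43, 11.73 and 11.60 after miR-126-5p, a difference of -0.39 that passed without only 2 of the 6 arrays. Of 20 integrins and laminins 3 were higher (15.0%, beside 8.80% of all protein-coding genes), with a median difference of 0.03 over the list. They were ITGA5, the fibronectin receptor chain (0.63), ITGA10 (0.53) and LAMA4 (0.44). The protease count was 7 without miR-140-3p replicate 2, and the integrin and laminin count was 1 without miR-140-3p replicate 1 and 1 without miR-126-5p replicate 2.

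The actin and contractile list held 5 of 19 members that were higher (26.3%, beside 8.80% of all protein-coding genes) and 0 that were lower. SRF, the transcription factor of this program, stood at 10.12, 9.53 and 9.83 after miR-140-3p, against 9.12, 9.17 and 9.10 after miR-126-5p, a difference of 0.69 ± 0.18 (standard error, limma adjusted p = 0.357). Its coactivator MYOCD was 0.53 higher. MYL9, the regulatory light chain of nonmuscle and smooth muscle myosin, stood at 18.24, 18.05 and 18.16 after miR-140-3p, against 17.64, 17.65 and 17.65 after miR-126-5p, 0.50 higher, and ZYX (0.63) and FLNA (0.35), which sit on actin filaments and adhesions, followed. The count was 2 without miR-140-3p replicate 1 and 2 without miR-126-5p replicate 2. CArG boxes were in 4 of the 15 promoters available for this list, in CNN2, MYLK, TPM4 and SRF. The SRF promoter itself held 2, in capitals, at chr6:43171019-43171318 on the plus strand of GRCh38.p14.
SRF promoter: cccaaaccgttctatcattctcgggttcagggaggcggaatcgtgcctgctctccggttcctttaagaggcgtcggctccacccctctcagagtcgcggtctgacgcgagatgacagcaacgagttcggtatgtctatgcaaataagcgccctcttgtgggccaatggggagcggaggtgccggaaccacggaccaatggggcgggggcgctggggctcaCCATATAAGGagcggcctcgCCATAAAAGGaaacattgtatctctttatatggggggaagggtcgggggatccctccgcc

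Interferon-stimulated genes, the antiviral set that interferons induce, varied between arrays within a mimic. Their mean log2 value was 10.46, 10.05 and 10.26 on the miR-140-3p arrays and 9.54, 9.63 and 10.53 on the miR-126-5p arrays, against 12.19, 12.86 and 13.07 on the control arrays. miR-126-5p replicate 3 had the highest mean of the 6 mimic arrays, and the other 2 of its set the lowest. MX1, an antiviral GTPase, stood at 11.91, 10.63 and 11.33 after miR-140-3p, against 8.28, 8.64 and 11.95 after miR-126-5p, a difference of 1.67 ± 0.81 (standard error) that did not pass. Of 73 measured members 8 were higher with miR-140-3p (11.0%) and 0 were lower. That share lay between the 8.80% of all protein-coding genes and the 12.0% of those with a mean of at least 6. Without miR-126-5p replicate 3 the count of members that were higher was 39 and the median difference 0.55, against 0.28 with all 6 arrays. It was 3 without miR-126-5p replicate 1, 3 without replicate 2 of that set and 4 without miR-140-3p replicate 1.

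The 8 members past the thresholds were IRF9 (0.96), IFITM1 (0.79), USP18 (0.74), IFITM2 (0.72), LGALS9 (0.65), TRANK1 (0.60), SHFL (0.54) and IFITM3 (0.53). Of the 6 fits that each left out an array, IRF9 kept its call in 3 and IFITM1 and SHFL in 2. USP18 and LGALS9 kept it in 4, and TRANK1 and IFITM3 in 5. IFITM2, a membrane protein that blocks viral entry, passed again without each array in turn, at 17.25, 16.52 and 16.49 after miR-140-3p, against 15.93, 16.10 and 16.08 after miR-126-5p. Of 16 interferons, receptors and kinases 0 were called. Of 18 antigen presentation genes 2 were higher (11.1%), a share between the same 8.80% and 12.0%. TAPBP, the peptide-loading bridge of class I molecules, stood at 13.52, 13.05 and 13.29 after miR-140-3p, against 12.17, 12.50 and 12.57 after miR-126-5p. The difference was 0.87 ± 0.18 (standard error, limma adjusted p = 0.357). PSMB9 was 0.68 higher with sets that were not apart. Of 12 complement genes the inhibitor SERPING1 alone was higher, by 0.69 (8.33%, beside 8.80% of all protein-coding genes).

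**Figure D4:**
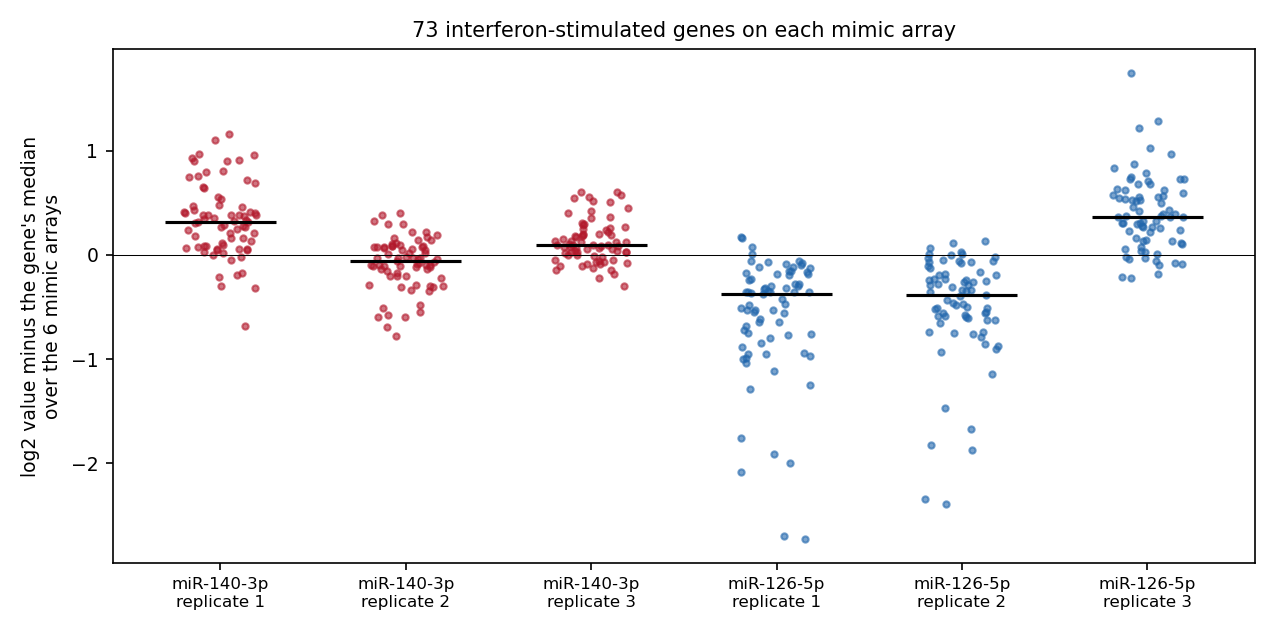
Log2 values of 73 interferon-stimulated genes on each of the 6 mimic arrays, minus the gene's median over those arrays (vertical axis), 1 point per gene, with black lines at the array medians. miR-126-5p replicates 1 and 2 lie low (list means 9.54 and 9.63), whereas miR-126-5p replicate 3 (10.53) lies with or above the miR-140-3p arrays.

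The neuronal label was checked against markers first. Of 12 measured neuronal markers 2 had a mean of at least 6, MAP2 and NEFM, and RBFOX3, SYN1, SYP, SNAP25, STMN2 and DCX lay below it. Of 10 fibroblast markers 9 had a mean of at least 6. The mean over the neuronal markers was 5.92, 5.79 and 5.74 after miR-140-3p, against 5.71, 5.67 and 5.79 after miR-126-5p, and over the fibroblast markers 13.39, 13.18 and 13.27 after miR-140-3p, against 13.25, 13.18 and 13.15 after miR-126-5p. Of the 12 neuronal markers 1 passed the thresholds and of the 10 fibroblast markers 2, all higher with miR-140-3p. In bulk RNA, fewer cells of a type and less RNA per cell cannot be told apart.

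Of 38 measured neuronal genes in the longer list 6 were higher (15.8%, beside 8.80% of all protein-coding genes) and 1 lower, with 13 of the 38 at a mean of at least 6. VAMP2, a SNARE protein of synaptic vesicles that also serves secretion elsewhere, stood at 10.39, 9.62 and 9.79 after miR-140-3p, against 8.81, 8.93 and 9.09 after miR-126-5p, a difference of 0.99 ± 0.21 (standard error, limma adjusted p = 0.357). The postsynaptic scaffold DLG4 stood at 11.16, 11.00 and 10.77 after miR-140-3p, against 10.14, 10.34 and 10.46 after miR-126-5p, 0.66 higher. NEFM, a neurofilament subunit, was 0.51 higher, STX1A 0.46, SLC17A7 0.47 and NCAM1 0.49, the last at values between 3.65 and 4.52 on the mimic arrays, near the background rows. GAD1, which makes GABA, was lower, at 7.87, 8.09 and 7.58 after miR-140-3p, against 8.13, 8.26 and 8.51 after miR-126-5p. The count of higher genes was 3 without miR-126-5p replicate 1 and 2 without miR-126-5p replicate 3.

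Among 38 neurotrophin and axon guidance genes 3 were higher (7.89%) and 2 lower (5.26%), beside 8.80% and 1.76% of all protein-coding genes. The count of 3 was 1 without miR-140-3p replicate 1, 1 without miR-140-3p replicate 3 and 5 without miR-140-3p replicate 2. NTRK3, the receptor of neurotrophin-3, was 0.60 higher at a level near background, the semaphorin receptor PLXNB1 0.56 and EPHA7 0.38. EPHA4 stood at 5.00, 5.75 and 5.71 after miR-140-3p, against 6.09, 6.46 and 5.96 after miR-126-5p, a difference of -0.68, and SEMA4D differed by -0.49. Of 15 progenitor genes VIM alone passed, at 0.33. Of 8 astrocyte, 8 oligodendrocyte and 10 microglia and leukocyte genes 0 passed, and of 11 endothelial genes TEK, the angiopoietin receptor, was lower by -0.62 at values between 3.88 and 4.89.

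Among growth and survival genes the share of calls differed by list. CDK2 was the only one of 39 cell cycle genes past the thresholds, at 0.53, or 2.56% beside 8.80% of all protein-coding genes. Of 20 p53 targets 3 were higher (15.0%) and 1 was lower (5.00%), beside 8.80% and 1.76% of all protein-coding genes. The inhibitor CDKN1A stood at 15.72, 14.98 and 15.12 after miR-140-3p, against 14.74, 14.78 and 14.72 after miR-126-5p, 0.52 higher. AEN was 0.47 higher, and the kinase PLK2 was lower by -0.34. FDXR also passed as higher, but its values of 2.63 to 3.65 on the mimic arrays lay below the means of the background rows (3.67 to 3.89). Of 37 apoptosis regulators 3 were higher, an 8.11% share beside the 8.80% of all protein-coding genes. They were the survival factor BCL2L2, at 9.89, 9.22 and 9.65 after miR-140-3p, against 8.56, 8.86 and 8.84 after miR-126-5p (0.83 higher), CASP2 (0.62) and the pore-forming GSDME (0.60). The p53 and apoptosis counts were each 1 without miR-140-3p replicate 1 and without miR-126-5p replicate 1. The cell cycle count reached 5 without miR-126-5p replicate 3, and the apoptosis count 5 without miR-140-3p replicate 2.

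Among the other stress lists 3 of 27 genes of the integrated stress response (11.1%) and 2 of 12 heat shock genes (16.7%) were higher, beside 8.80% of all protein-coding genes and 12.0% of those with a mean of at least 6. In the integrated stress response TRIB3 was 0.75, the serine pathway enzyme SHMT2 0.65 and PPP1R15A, which restarts translation, 0.59 higher. Among the heat shock genes the cochaperone BAG3 was 0.76 higher, and HSPB1 stood at 16.76, 16.36 and 16.56 after miR-140-3p, against 15.92, 16.05 and 16.05 after miR-126-5p, 0.55 higher. Of 17 endoplasmic reticulum chaperones and 14 NRF2 targets 0 were called. In signaling, TGFB1 (0.45) was the 1 of 20 TGF-beta genes that was higher (5.00%) and ID3 (0.52) the 1 of 13 BMP genes (7.69%). LRP5 (0.94) was the 1 of 23 WNT genes (4.35%) and MAML1 (0.52) the 1 of 16 NOTCH genes (6.25%). These shares lay below the 8.80% of all protein-coding genes. The LRP5 sets overlapped, and MAML1 kept its call in 1 of the 6 fits that left out an array. Of 39 growth factor genes 4 were higher (10.3%, beside 8.80% of all protein-coding genes). They were VEGFB (0.61), IGFBP4 (0.54), IGFBP5 (0.78) and FGF1 (0.36). FGF1 kept its call in 1 of the 6 fits that left out an array. The IGFBP5 sets overlapped and its difference was 0.33 without miR-140-3p replicate 1. It kept its call in 1 of the 6 fits that left out an array, that without miR-140-3p replicate 3. Lipid genes held PPARD (0.83), LPIN1 (0.76) and, among sterol genes, SREBF2 (0.50). The medians of these lists lay between -0.09 and 0.17. The stress response count was 8 without miR-140-3p replicate 2, and the growth factor count was 1 without miR-126-5p replicate 3 and 2 without miR-140-3p replicate 1 or either other miR-126-5p array. The heat shock count stayed at 2 without each array in turn.

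The genes with the largest differences overall were chosen by size and by p among well expressed protein-coding genes with sets apart. HSPB6, a small heat shock protein of muscle, led, at 14.87, 13.77 and 14.06 after miR-140-3p, against 12.52, 12.61 and 12.72 after miR-126-5p, a difference of 1.62 ± 0.26 (standard error, limma adjusted p = 0.357). ALG3, a mannosyltransferase of N-glycan assembly, had the smallest p of the named genes, at 13.96, 13.55 and 13.65 after miR-140-3p, against 12.41, 12.68 and 12.56 after miR-126-5p, a difference of 1.18 ± 0.17 (standard error, limma adjusted p = 0.357). SLC36A1, a lysosomal proton-coupled amino acid transporter, stood at 13.24, 12.74 and 12.78 after miR-140-3p, against 11.64, 11.84 and 11.76 after miR-126-5p, 1.17 higher. These 3 passed again without each array in turn.

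FHL3, a LIM protein (1.31), NRSN2, a neurensin of small vesicles (1.30), INAFM1, PPDPF (1.17), SYPL2 (1.13), ZFPL1, a Golgi protein (1.02), and BBS1, a subunit of the ciliary BBSome (0.89), completed the group. INAFM1 was uneven among the miR-140-3p arrays, at 9.24 on replicate 1 and 7.28 and 7.65 on the other 2, against 6.57, 6.89 and 6.98 with miR-126-5p. Progranulin (GRN), a lysosomal and secreted growth factor, belonged to the reported miR-140-3p targets and was 0.92 higher.

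For the leading genes the control arrays did not form 1 group. HSPB6 was at 11.51, 14.22 and 14.61 on the control arrays, ALG3 at 12.53, 13.59 and 13.85, and SLC36A1 at 11.61, 12.90 and 13.03. Control replicate 1 thus lay with or below the miR-126-5p arrays and control replicates 2 and 3 with the miR-140-3p arrays. Over the 1223 well expressed protein-coding genes higher with miR-140-3p, control replicate 1 was nearer the miR-140-3p mean for 39.0%, control replicate 2 for 80.4% and control replicate 3 for 93.2%. For 569 of them control replicate 1 alone was nearer the miR-126-5p mean. The 3 control arrays thus differed among themselves along the same genes, and what that has to do with the difference between the mimics was not tested.

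Values lower with miR-140-3p were mostly outside the well expressed protein-coding genes. Over the 132 such genes that were lower, control replicates 1, 2 and 3 were nearer the miR-140-3p mean for 37.1%, 33.3% and 27.3%. S100A13, which carries FGF1 out of cells, was among those that were well expressed, at 8.85, 8.84 and 8.54 after miR-140-3p, against 9.96, 9.58 and 9.67 after miR-126-5p, a difference of -0.99 ± 0.17 (standard error, limma adjusted p = 0.357). The other leaders were the testis antigens CT45A8, CT45A9 and CT45A10 (-1.09 each), the deubiquitinase USP17L1 (-0.92), the beta-defensin DEFB105A (-0.91), STIL, a centriole duplication factor (-0.88), and the olfactory receptor OR2T5 (-0.86). All of these but STIL had means below 6 after miR-140-3p, from 5.60 for USP17L1 to 5.89 for CT45A8 and CT45A9. They reached the floor of 6 only through the miR-126-5p arrays, with means of 6.52 to 6.98, so their place here depended on the set in which they were high. STIL was lowest on miR-140-3p replicate 2, at 5.42 beside 6.59 and 6.56, with miR-126-5p at 7.22, 7.08 and 6.90. CT45A8 and CT45A9 had identical values on every array and count as 1 measurement.

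The near-identical copies of 2 families went together, families that were singled out after their values had been seen. Of 7 CT45A genes 7 were lower, with a median difference of -1.09, and of 16 USP17L genes 11 were lower, with a median of -0.72 and all 16 differences negative. USP17L12 stood at 5.27, 5.42 and 5.51 after miR-140-3p, against 6.48, 6.40 and 6.29 after miR-126-5p, a difference of -0.98. Probes of such copies may share targets, so the members are not independent measurements. The control mean was nearer the miR-140-3p mean for every USP17L gene, as for USP17L12 at 5.59, 5.83 and 5.54. For the CT45A genes it was mixed, with the control mean of CT45A8 (6.54) nearer the miR-126-5p mean (5.89 after miR-140-3p, 6.98 after miR-126-5p) and that of CT45A5 (7.09) nearer the miR-140-3p mean (6.89 after miR-140-3p, 7.54 after miR-126-5p). The USP17L count was 15 without miR-126-5p replicate 3 and 8 without miR-140-3p replicate 1 or miR-126-5p replicate 1. The CT45A count lay between 6 and 7. Neither median changed sign with other scaling, at -0.76 and -0.70 for USP17L and -1.07 for CT45A.

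By gene class, pseudogenes and microRNA genes leaned the other way from protein-coding genes. Of 1667 pseudogenes 8.82% were lower with miR-140-3p and 1.74% higher, of 1454 microRNA genes 8.12% were lower and 3.58% higher, and of 2388 long noncoding RNAs 4.90% were lower and 3.10% higher, beside the 1.76% and 8.80% of protein-coding genes. The order of the long noncoding RNAs was not stable, at 3.35% lower and 4.31% higher without miR-140-3p replicate 3 and 5.41% lower and 6.01% higher among rows with a mean of at least 6. Among 158 small nucleolar RNAs 4.43% passed in each direction. Level went along with class, at medians of 5.03 for pseudogenes, 4.97 for microRNA genes and 6.91 for protein-coding genes. Among rows with a mean of at least 6, 14.9% of pseudogenes were lower and 0.996% higher. For microRNA genes these shares were 14.1% and 4.78%, and for protein-coding genes 1.61% and 13.6%. What level has to do with the class shares was not tested. Without miR-140-3p replicate 1, 7.68% of pseudogenes and 2.87% of protein-coding genes were lower, and without miR-126-5p replicate 1 the share of microRNA genes that were lower was 4.75%.

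**Figure D5:**
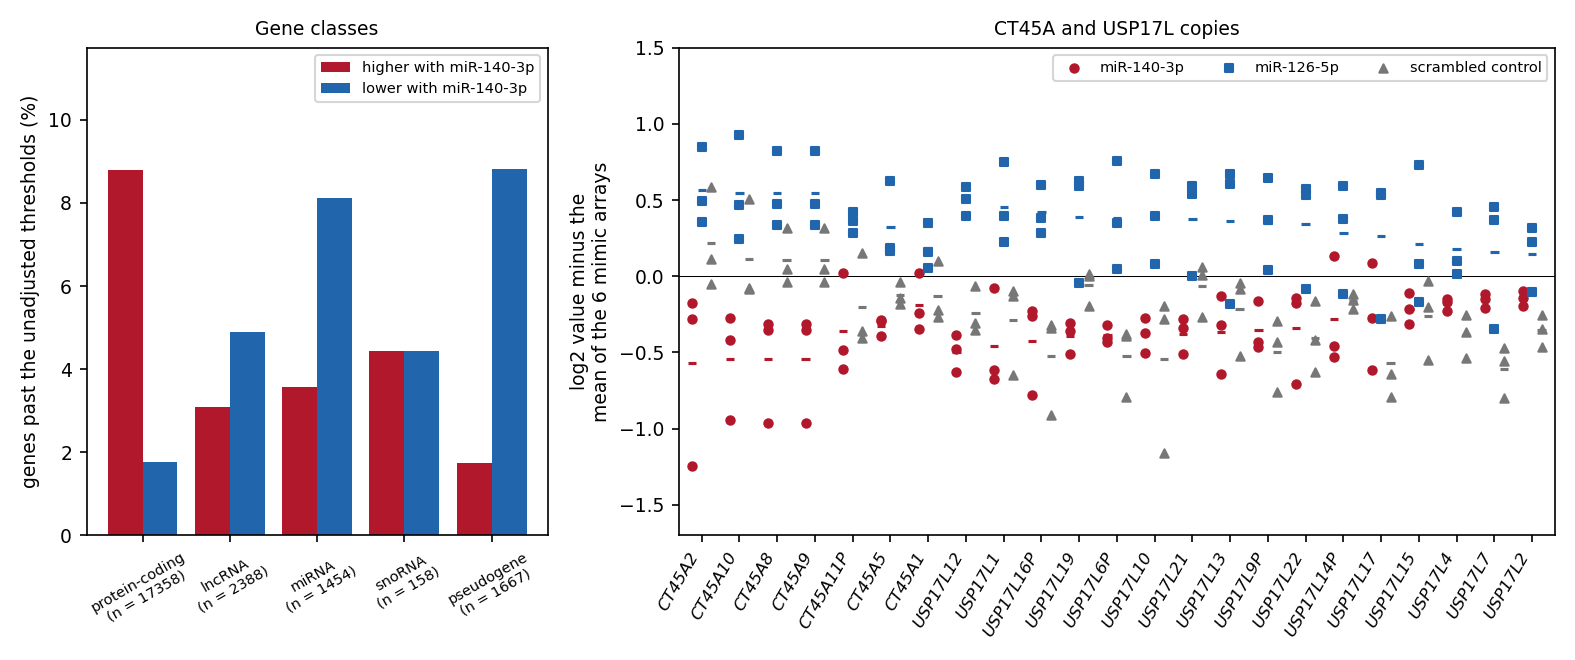
Left, share of genes of each class shown (%, vertical axis) past the thresholds, higher (red) or lower (blue) with miR-140-3p. Transcribed pseudogenes and genes not matched to the RefSeq table are not drawn. Right, log2 values of the CT45A and USP17L copies on single arrays minus each gene's mean over the 6 mimic arrays, with miR-140-3p (red circles), miR-126-5p (blue squares) and scrambled control (grey triangles), where all 7 CT45A and 11 of 16 USP17L genes passed as lower.

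Within the noncoding genes, the primate-specific MIR548 family was also singled out after its values had been seen. Of its 72 genes 21 (29.2%) were lower and 1 was higher, beside 8.12% lower and 3.58% higher among all microRNA genes. Probes of these related genes may share targets, so the members may not be independent measurements. MIR548AJ2 stood at 10.83, 11.50 and 10.87 after miR-140-3p, against 11.94, 12.10 and 11.82 after miR-126-5p, a difference of -0.89, and MIR548AQ differed by -0.84. MIR4421 stood at 6.31, 6.03 and 5.98 after miR-140-3p, against 7.07, 7.09 and 7.03 after miR-126-5p, a difference of -0.96 ± 0.16 (standard error, limma adjusted p = 0.357). MIR8078 (-0.87) and LOC101928697 (-0.91) were the other leaders among lower noncoding genes. Higher with miR-140-3p were MIR6746 (0.82), at 13.96, 13.50 and 13.64 against 12.67, 13.15 and 12.84 with miR-126-5p, the snoRNA SNORD72 (0.73), the long noncoding RNAs PCAT6 (0.73) and LOXL1-AS1 (0.69), and MIR6515 (0.69). The MIR548 count was 13 without miR-140-3p replicate 1 and 11 without miR-126-5p replicate 1.

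The genes of the 2 microRNAs gave no sign of the mimics themselves, which are mature strands. MIR140 stood at 4.17, 3.95 and 4.08 after miR-140-3p, against 4.00, 3.89 and 4.32 after miR-126-5p. MIR126 stood at 2.91, 2.67 and 2.59 after miR-140-3p, against 2.55, 2.65 and 2.69 after miR-126-5p. Both lay near or below the background rows, and neither host gene, WWP2 or EGFL7, passed the thresholds. The arrays therefore do not check the labels of the transfections.

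Genes reported elsewhere as targets of either microRNA were also compared, from lists recalled from general knowledge and mostly drawn from other cell types. Of 14 measured genes reported as miR-140-3p targets, 0 were lower with miR-140-3p and 2 were higher (14.3%, beside 8.80% of all protein-coding genes). GRN stood at 15.38, 14.69 and 14.97 after miR-140-3p, against 13.99, 13.96 and 14.33 after miR-126-5p, a difference of 0.92 ± 0.21 (standard error, limma adjusted p = 0.357), and the RNA-binding protein IGF2BP1 was 0.43 higher. HMGB1 (-0.17), NRIP1 (-0.05), CD38 (0.15), BCL2L1 (0.17) and the checkpoint ligand CD274 (-0.04) did not pass. Of 12 reported miR-126-5p targets 0 passed in either direction. ADAM9 was at -0.22, ALCAM at 0.01, SEMA3A at 0.26, CXCL12 at 0.27, VEGFA at 0.25 and DLK1 at -0.13. The medians of the lists were 0.08 and 0.11, beside 0.076 over all protein-coding genes.

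In the microRNA pathway 3 of 19 genes were higher (15.8%, beside 8.80% of all protein-coding genes). They were the nuclear export receptor XPO5 (0.46), the DICER1 partner TARBP2 (0.53) and LIN28B (0.35), the last 2 at log2 values of 4.53 to 5.58 on the mimic arrays. DICER1 stood at 9.52, 9.53 and 9.57 after miR-140-3p, against 10.01, 9.69 and 9.77 after miR-126-5p, a difference of -0.28 that did not pass. The count was 1 without replicate 1 or 3 of miR-140-3p and likewise without replicate 1 of miR-126-5p. Of 18 ribosomal protein genes 0 were called, with a median of -0.06. Of 23 genes used in every cell 2 were higher (8.70%, near the 8.80% of all protein-coding genes), with a median of 0.07. The mean over those 23 genes was 14.02, 13.72 and 13.78 on the miR-140-3p arrays and 13.70, 13.70 and 13.76 on the miR-126-5p arrays, so that miR-140-3p replicate 1 was also the highest mimic array for genes of this kind.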

How the data were processed

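HCN-2 cells were profiled on 9 Affymetrix arrays, 3 for each mimic and 3 for the scrambled control. Per the labels the RNA went through a pair of amplification rounds before labeling, which can distort levels, and its effect was not tested. The deposited values are log2 expression that the authors made with RMA, which corrects the background, normalizes by quantiles and summarizes probes per row. Expression Console and Partek are also named in the submitters' processing notes, without versions, and the genome build is not given in the sources used here. The series text and the study's methods name different Clariom arrays.

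Of the 138745 rows, 31 controls, 1119 rows with several symbols and 101419 rows not listed in the platform annotation were left out. Limma 3.58.1 (R 4.3.3; lmFit and eBayes, two-sided) was fitted to the 6 mimic arrays over 36176 rows, and every p-value and adjusted p-value in the text comes from it unless an alternative is named. Tables were built in Python 3.11.15 with pandas 2.3.3. A gene with several rows was represented by the row with the highest mean over the 9 arrays. RefSeq gene types were matched by Entrez identifier for 25516 rows, and the mature microRNAs and promoters come from RefSeq on GRCh38.p14.

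The genes named are, among protein-coding genes with a mean of at least 6 and sets apart, the 8 largest differences and 6 smallest p-values in each direction, the members of 43 gene lists past the thresholds with a few that define a list, the 5 largest noncoding differences in each direction, and the microRNA genes and hosts. The members and lists were chosen with earlier results of these data known. The fit was tested on simulated data with 200 of 36176 rows shifted. It recovered 19 and 20 of 50 rows shifted by 1 on the log2 scale upward and downward, and 48 and 49 of 50 shifted by 2, at the adjusted threshold.

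Alternatives were a 9-array fit, the replicate number as a block, renewed quantile normalization, median centring, an intensity trend with robust estimation, no moderation, a floor on the mean, every row, array weights and leaving out each array.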

Additional observations from a re-analysis of the deposited data

How the results depend on the processing

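The count at the adjusted threshold was 0 in the 6-array limma fit and in all 15 alternatives, with the smallest adjusted p at 0.0761 under an intensity trend with robust estimation. Rows past the unadjusted thresholds numbered 2118 higher and 1528 lower with miR-140-3p. Without moderation of the variance they were 1318 and 803, over all 138714 rows that are no controls 4464 and 7150, and among rows with a mean of at least 6 the lower ones were 786. Leaving out single arrays gave 1340 to 2787 higher and 1009 to 1850 lower, the smallest counts without miR-126-5p replicate 1 and the largest without miR-140-3p replicate 2. Of the called rows 58.1% were higher, and 48.8% without miR-140-3p replicate 1. Same-numbered arrays of the mimics had correlations of deviations of -0.05, -0.00 and 0.02. These values gave no sign of pairing over the rows tested. They cannot settle whether the numbers pair samples, since the titles give only a number. With the replicate number as a block, 1976 rows were higher and 1493 lower. Of 150 named genes that passed, 96 kept the call without moderation, 96 without miR-140-3p replicate 1 and 97 without miR-126-5p replicate 1, and 0 changed direction in any alternative. With 3 arrays a set, log2 differences near 1 were recovered for 19 and 20 of 50 simulated rows, so differences of that size could have been missed.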

Other observations

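Several other groups of repeated genes were singled out after their values had been seen. Of 85 OR7E olfactory receptor pseudogenes 25 (29.4%) were lower with miR-140-3p and 1 was higher, beside 8.82% lower among all genes that RefSeq types as pseudogenes. The median OR7E difference was -0.29, and 12 were lower without moderation of the variance. Other groups were closer to that share or rested on single arrays. Of 664 RN7SL pseudogenes, copies of the signal recognition particle RNA, 73 (11.0%) were lower and 5 higher, with 31 lower without miR-126-5p replicate 1 and 45 without miR-126-5p replicate 3. Of 474 RNA5S pseudogenes 49 (10.3%) were lower and 4 higher, with 30 lower without miR-126-5p replicate 1, 32 without miR-140-3p replicate 1 and 77 without miR-140-3p replicate 2. Of 1227 RNU6 pseudogenes, copies of the U6 spliceosomal RNA, 92 (7.50%) were lower and 65 (5.30%) higher. The RNU6 counts had no settled direction, at 63 lower and 72 higher without miR-140-3p replicate 1, 67 lower and 77 higher without miR-140-3p replicate 3, 49 lower and 52 higher without miR-126-5p replicate 1 and 156 lower and 62 higher without miR-140-3p replicate 2. Of 39 EEF1A1 pseudogenes 7 were lower and 1 higher, and 4 were lower without miR-140-3p replicate 1, 3 without miR-126-5p replicate 1, 4 without miR-126-5p replicate 3, 11 without miR-140-3p replicate 2 and 13 without miR-126-5p replicate 2. Without moderation of the variance 40 RN7SL and 25 RNA5S pseudogenes were lower, and 28 RNU6 pseudogenes passed in each direction. Probes for such copies may share targets, and cross-hybridization was not tested.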
